A study of Homo sapiens with 11 samples.

Results

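The 44 genes described here encode the coats, cargo receptors, tethers and fusion proteins that carry membrane and protein between the endoplasmic reticulum (ER) and the Golgi. They were chosen by name from general knowledge of the pathway, with earlier results of these data known. They are 44 of the 38021 genes in the deposited count table. They were sorted into the COPII coat (12 genes), the COPI coat (13), cargo receptors (13) and tethers and SNAREs (6). RNA was sequenced from wild-type HEK293T cells after 6 h of treatment. HEK293T is an established cell line from human embryonic kidney that carries the SV40 large T antigen. The 11 conditions were vehicle (0.1% DMSO), thapsigargin (Tg) at 500 nM, AA147 at 10 µM, and AA132 at 0.1, 0.3, 1, 3, 6, 10, 15 and 30 µM. Thapsigargin blocks the calcium pump of the ER and is a general inducer of ER stress, and AA147 and AA132 are small molecules that the series title calls regulators of ER protein homeostasis. Each condition had 3 numbered libraries of the same cell line. The labels do not say whether these came from separate cultures, so the spread between libraries that the p-values rest on may be technical. For comparisons of conditions that spread was estimated over all 33 libraries in 1 fit. Libraries of a condition differed most in vehicle. Vehicle libraries 1 and 2 had a chi-square per degree of freedom of 64.5, a measure of difference beyond counting error, against at most 8.01 under Tg.

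COPII vesicles leave the ER at exit sites that SEC16A scaffolds: the exchange factor PREB loads the GTPases SAR1A and SAR1B, which recruit an inner layer of SEC23 and SEC24 proteins, and SEC13 and SEC31A form the outer cage. COPI vesicles carry escaped ER proteins and machinery back, through ARF GTPases that the exchange factor GBF1 activates and GTPase-activating proteins (ARFGAP1, ARFGAP3) switch off. Cargo receptors link lumenal proteins to either coat, the long coiled-coil proteins USO1 and GOLGB1 tether arriving vesicles, and SNAREs such as STX5, BET1, SEC22B and GOSR2 fuse the membranes. The unfolded protein response, the set of programmes started by ER stress, is known to include genes of this pathway, and its factors XBP1 and ATF6 recognise DNA letters such as those shown next.

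Promoter sequence came from the RefSeq table of GRCh38.p14, which gives 250 bases before to 50 bases after a transcription start and held entries for 37 of the 44 genes. SEC24D, ARF4, ARFGAP1, KDELR2, TMED9, ERGIC1 and USO1 had no entry. The 8 letters TGACGTGG, one form of the unfolded protein response element, were found on either strand in 10 of the 37 genes (27%), against 253 of 27305 genes (0.927%) with a promoter in that table. The 10 were SEC23A, SEC24A, SEC16A, COPA, ARF1, COPB1, COPB2, GBF1, KDELR3 and STX5. The ER stress response element, CCAAT and CCACG with 9 bases between them, was in 0 of 37 (0.0916% of genes), and its second form, ATTGG and CCACG with 1 base between them, in 0 of 37 (0.0696% of genes). The short letters CCACG, which every TGACGTGG match also holds on its other strand, were in 33 of 37 (89.2%, against 42.1% of genes). The members and all genes with a promoter entry were not matched for expression, base content or number of entries per gene. A match of letters is a description of the sequence, not evidence of binding. The 90 bases just before the start are given below for STX5, ARF1, COPB1 and KDELR3, members of 3 classes that hold a match in that window, and for KDELR1, a KDEL receptor whose promoter entry holds no TGACGTGG. Sequences run 5′ to 3′ on the gene's strand, with the match in capitals (CCACGTCA is TGACGTGG on the opposite strand).
STX5 (chr11:62832052-62832141, minus strand): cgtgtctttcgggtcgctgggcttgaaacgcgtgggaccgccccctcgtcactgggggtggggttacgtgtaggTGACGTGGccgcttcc
ARF1 (chr1:228082618-228082707, plus strand): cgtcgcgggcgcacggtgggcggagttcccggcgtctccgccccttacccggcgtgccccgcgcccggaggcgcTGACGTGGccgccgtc
COPB1 (chr11:14499812-14499901, minus strand): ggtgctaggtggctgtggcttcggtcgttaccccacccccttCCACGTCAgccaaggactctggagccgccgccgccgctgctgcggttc
KDELR3 (chr22:38468006-38468095, plus strand): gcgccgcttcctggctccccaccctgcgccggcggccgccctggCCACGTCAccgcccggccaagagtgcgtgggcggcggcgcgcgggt
KDELR1 (chr19:48391552-48391641, minus strand): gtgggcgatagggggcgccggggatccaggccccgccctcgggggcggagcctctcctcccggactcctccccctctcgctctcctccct
The match began 16 bases before the start in both STX5 and ARF1, 48 bases before it in COPB1 and 46 bases before it in KDELR3. Under Tg, described below, every member with a match rose except SEC16A. Every member with an entry and no match also rose, except SEC24B, COPG2, KDELR1 and LMAN2. Whether a match goes with the response to Tg was not tested.

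Library totals ran from 32.3 to 38 M counts, and all 44 genes passed the filter on low counts, the lowest single value being 291 counts for KDELR3 in a library of AA132 0.1 µM. Vehicle library 1 stood apart. Its median absolute deviation from the mean of its condition's libraries, itself included, was 0.194 on the log2 scale over all genes. The same value was 0.061 to 0.143 in the other libraries, the highest being vehicle library 2. The deviations of vehicle library 1 followed transcript length (r = -0.39 across genes, a description). Calls of members that changed when that library was left out are given beside the results. AA132 10 µM library 1 also differed from its fellows (0.142, against 0.098 and 0.099 in the other 2 libraries), and held 1854 CPM of the stress marker HSPA5 against 2687 and 2836 CPM. Of genes used to describe the cells, VIM, KRT8 and KRT18 were high (VIM 702 to 1555 CPM) and PAX2 was low (0.407 to 1.53 CPM). The neurofilament genes NEFL, NEFM and INA that this line expresses were present (NEFL 46 to 76.9 CPM). ALB, PTPRC, PECAM1, HBB and CD3E, markers of other cell types, had at most 5 counts in any library. HSPA5, the ER chaperone BiP and a marker of ER stress, had a mean of 960 CPM in vehicle, 11023 CPM under Tg, 1562 CPM under AA147 and 2636 CPM under AA132 at 30 µM. The stress markers DNAJB9, SDF2L1, HERPUD1 and DDIT3 were also highest under Tg, with DDIT3 at 7.86, 96.7, 12.7 and 19.8 CPM in the same 4 conditions.

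In vehicle the most abundant member per kilobase of transcript was the lectin LMAN2, which carries glycoproteins out of the ER, at 219 CPM per kb, followed by the KDEL receptor KDELR1 at 186, the cage protein SEC13 at 157 and the GTPase ARF1 at 149. The least abundant were KDELR3 at 5.71 CPM per kb, MCFD2 at 8.58, SAR1B at 8.86, TMED7 at 9.94 and SEC24D at 10.2. LMAN2 had a wide spread between libraries, 353 ± 66.7 CPM (SD, n = 3), with vehicle library 1 the high value.

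Most of the 44 genes were higher under Tg, while 77 other tested genes of this pathway had a median log2 fold change of 0.11. Of the 44 genes, 38 rose and 2 fell at an adjusted p under 0.05 (edgeR's quasi-likelihood test with Benjamini-Hochberg adjustment over 17793 genes), where 31.2% of all genes tested were called, 16.2% higher and 15.0% lower. The median log2 fold change of the 44 was 0.71, against 0.00 over all genes. A rise of at least 2-fold was called for 13 of the 44, against 3.23% of all genes. By class, the median was 0.87 for cargo receptors, 0.77 for tethers and SNAREs, 0.66 for the COPI coat and 0.43 for the COPII coat. The summed level of the 44 genes was 6566, 6724 and 6637 CPM in vehicle and 10830, 10654 and 10827 CPM under Tg. In bulk RNA these are shares of each library's reads, and a change in RNA per cell cannot be told apart from a change in the number of cells that hold it. With vehicle library 1 left out, 41 of the 44 were called, 38 higher and 3 lower. Over all genes 5148 were then called, against 5551 in the full fit. Of the 41 members, 39 were among the 40: SAR1A lost its call, and SEC24B (lower) and LMAN2 (higher) gained one.

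**Figure D1:**
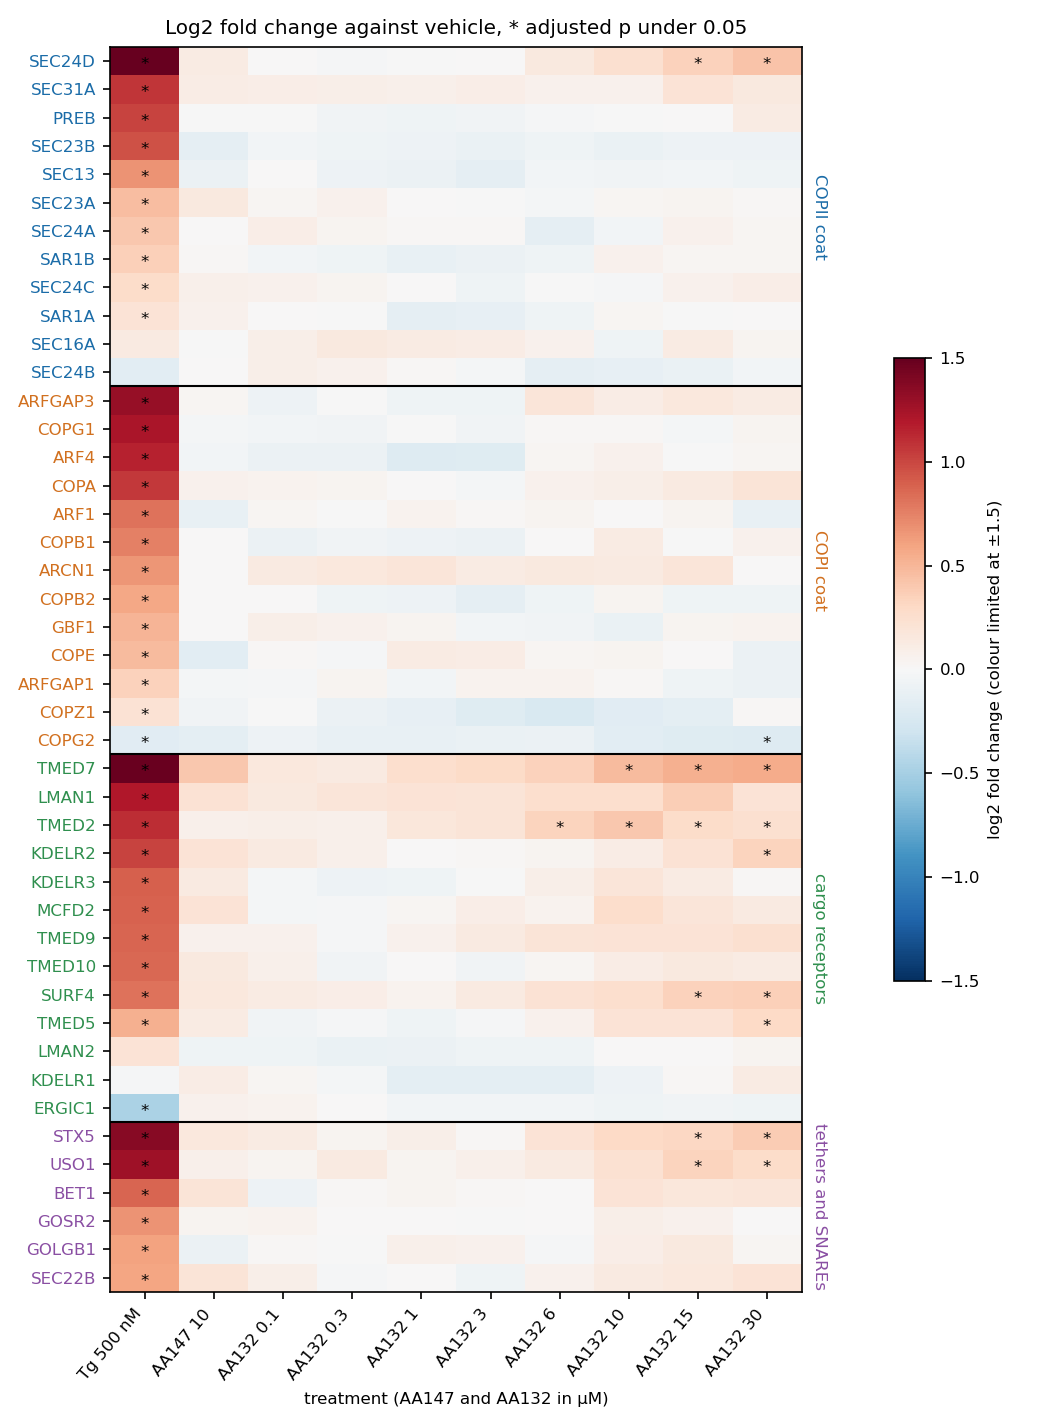
Log2 fold change of the 44 genes against vehicle, fitted by edgeR. Rows are genes grouped by class and ordered by their change under Tg, columns are the 10 treatments, colour gives the log2 fold change (red higher, blue lower, limited at ±1.5), and a star marks an adjusted p under 0.05. The Tg column holds 40 stars, AA147 and AA132 up to 3 µM hold 0, and AA132 at 30 µM holds 9, of which 5 are in cargo receptors.

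**Figure D2:**
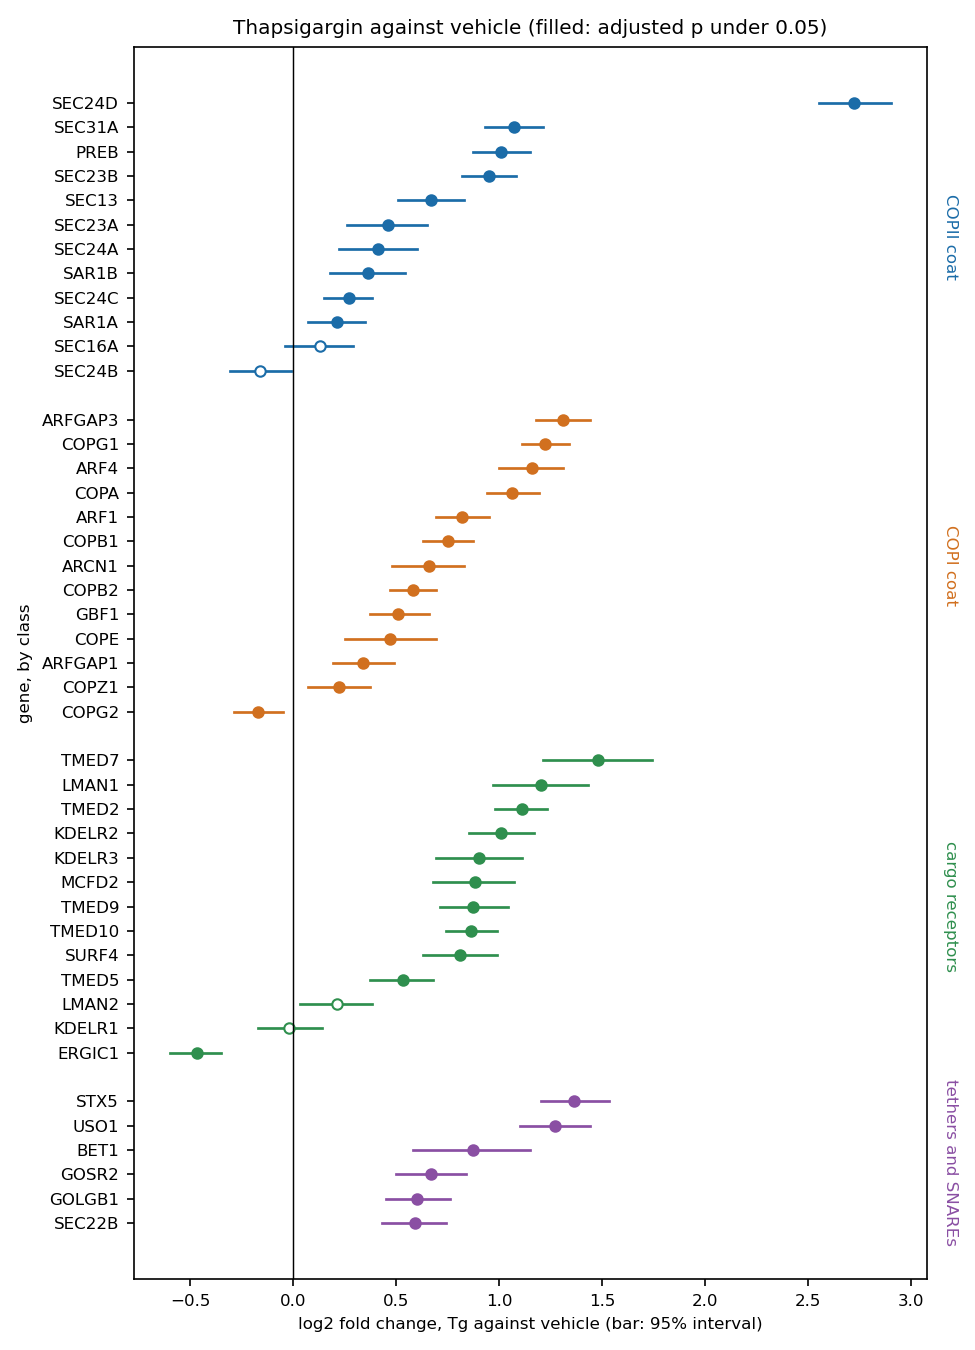
Log2 fold change under Tg against vehicle for each of the 44 genes, with 95% intervals from the edgeR fit. The vertical axis lists genes by class and filled points have an adjusted p under 0.05. SEC24D stands at 2.72, and every other member lies between -0.47 and 1.48.

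In the COPII coat, 10 of 12 genes rose under Tg and 0 fell. The cargo-binding subunit SEC24D (chromosome 4, 118722823 to 118838683, minus strand, GENCODE v44 on GRCh38) was at 34.6, 42.9 and 46.0 CPM in vehicle and at 282, 268 and 265 CPM under Tg. Every Tg library was far above every vehicle library, a 6.59-fold rise (log2 2.72, 95% interval 2.55 to 2.90, adjusted p = 4.29e-22), and by p-value SEC24D ranked 2 among the 17793 genes tested. The outer-cage protein SEC31A was at 116, 143 and 146 CPM in vehicle and 284, 292 and 275 CPM under Tg (log2 1.07, adjusted p = 2.20e-14). PREB, the exchange factor that activates SAR1, went from 185, 151 and 157 CPM to 345, 320 and 329 CPM (log2 1.01, adjusted p = 6.45e-14). For SEC31A and PREB the groups again did not overlap. SEC23B, the inner-coat GTPase activator, was at 209, 208 and 189 CPM in vehicle and 392, 391 and 389 CPM under Tg (log2 0.95, adjusted p = 6.50e-14), while its paralogue SEC23A rose by a log2 of 0.46 (95% interval 0.26 to 0.65), or 0.28 without vehicle library 1. The intervals of the SEC23 genes did not overlap. SEC13 rose by 0.67, SEC24A by 0.41, SAR1B by 0.36, SEC24C by 0.27 and SAR1A by 0.21 on the log2 scale. SEC24A was at 0.25 and still called without vehicle library 1, and SAR1A, the smallest of these, was then not called (log2 0.13, adjusted p = 0.158). The calls for SEC23A and SEC24A were each lost in 2 of 12 alternative settings. Here and below, these settings include a minimum log2 fold change of 0.5, which ends every call on a smaller change by its rule. The exons of SEC24C overlap an annotated transcript on the opposite strand over 43.4% of their length, so reads from that stretch may not be told apart.

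SEC16A and SEC24B did not pass the test under Tg in the fit of all libraries. The scaffold SEC16A, which holds a TGACGTGG match 16 bases after its start, was at 219, 270 and 255 CPM in vehicle and 267, 266 and 279 CPM under Tg, with overlapping groups (log2 0.13, 95% interval -0.04 to 0.29, adjusted p = 0.244). SEC24B was at 56.2, 66.9 and 66.9 CPM in vehicle and 57.7, 59.6 and 53.2 CPM under Tg (log2 -0.16, 95% interval -0.31 to -0.01, adjusted p = 0.108). Library 1 was the low value of the vehicle group, and without it SEC24B was called lower (log2 -0.24, adjusted p = 0.00892). Of the 4 SEC24 paralogues, which bind different cargo signals, SEC24D stood apart, with an interval that overlapped that of no other. SEC24A and SEC24C were at 0.25 and 0.23 without vehicle library 1. Differences between paralogues were not tested. Per kilobase, SEC24D made up 10.7%, 11.5% and 12.4% of the summed SEC24 level in the vehicle libraries and 43.4%, 42.2% and 41.2% under Tg. SEC24C was the largest share in vehicle at 57.8% ± 3.11 (SD, n = 3) and was 38.4% ± 1.37 under Tg, below SEC24D in every Tg library.

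In the COPI coat, 12 of 13 genes rose and 1 fell under Tg. The ARF GTPase activator ARFGAP3 was at 48.7, 54.1 and 54.3 CPM in vehicle and 130 ± 3.01 CPM under Tg (SD, n = 3), the lowest of these libraries being at 127 CPM (log2 1.31, adjusted p = 2.85e-17). The coat subunit COPG1 (chromosome 3, 129249606 to 129277773, plus strand) was at 152, 134 and 148 CPM in vehicle and 331, 342 and 337 CPM under Tg (log2 1.22, adjusted p = 4.40e-18). In both genes the lowest Tg library was more than 2-fold above the highest vehicle library. The GTPase ARF4 was at 85.4, 97.2 and 82.4 CPM in vehicle and 195, 198 and 197 CPM under Tg (log2 1.16, adjusted p = 5.10e-14). COPA, the alpha subunit that binds retrieval signals, was at 340, 386 and 365 CPM in vehicle and 762, 753 and 762 CPM under Tg (log2 1.06, adjusted p = 2.55e-15). The other coatomer subunits rose less, COPB1 by 0.75, ARCN1 by 0.66, COPB2 by 0.58, COPE by 0.47 and COPZ1 by 0.22 on the log2 scale. Of the regulators, ARF1 rose by 0.82, GBF1 by 0.51 and ARFGAP1 by 0.34. The call for COPZ1 was lost in 6 of 12 alternative settings, and COPE, highest of the vehicle libraries in library 1, had a log2 fold change of 0.72 without it. ARFGAP1 was at 0.48 without that library. The exons of COPB2 overlap those of MRPS22 on the opposite strand over 29.6% of their length and those of COPE overlap another annotated gene on the same strand over 23.3%, so reads from these stretches may not be told apart.

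COPG2, the paralogue of COPG1 that takes the same place in the coat, fell. It was at 119, 120 and 110 CPM in vehicle and 104, 104 and 102 CPM under Tg, with no overlap (log2 -0.17, 95% interval -0.29 to -0.05, adjusted p = 0.0247). Its share of the summed COPG level per kilobase was 44.2% ± 2.44 in vehicle and 23.1% ± 0.363 under Tg (SD, n = 3), and that of COPG1 was 55.8% and 76.9%. The fall was small, and its call was lost in 3 of 12 alternative settings.

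Of the 13 cargo receptors, 10 rose, 1 fell and 2 did not pass the test under Tg. TMED7, a member of the p24 family that sorts cargo such as GPI-anchored proteins (chromosome 5, 115613210 to 115632992, minus strand), was at 27.2, 42.7 and 46.9 CPM in vehicle and 116, 108 and 101 CPM under Tg (log2 1.48, adjusted p = 4.56e-11). Vehicle library 1 was the low value, and without it the change was 1.27. LMAN1, the lectin ERGIC-53 that carries coagulation factors with its partner MCFD2, was at 79.2, 128 and 122 CPM in vehicle and 252, 256 and 247 CPM under Tg (log2 1.20, adjusted p = 2.59e-10, and 1.00 without vehicle library 1). TMED2, another p24 protein (chromosome 12, 123584533 to 123598582, plus strand), was at 137, 154 and 161 CPM in vehicle and 309, 319 and 345 CPM under Tg (log2 1.11, adjusted p = 7.50e-16). KDELR2, which returns proteins with a KDEL tail to the ER, was at 157, 177 and 177 CPM in vehicle and 354, 354 and 322 CPM under Tg (log2 1.01, adjusted p = 1.80e-12). In these 4 genes every Tg library was above every vehicle library. KDELR3 rose by 0.90, MCFD2 by 0.88, TMED9 by 0.87, TMED10 by 0.86, the broad-range receptor SURF4 by 0.81 and TMED5 by 0.53 on the log2 scale. The 5 p24 genes among the 44 thus rose. Of the other p24 genes measured, TMED1 (log2 -0.24, adjusted p = 0.0155) and TMED4 (log2 -0.26, adjusted p = 0.0176) fell, though neither was called without vehicle library 1, and TMED3 (log2 -0.09) and TMED8 (log2 0.33) did not pass.

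The KDEL receptors split as the SEC24 and COPG genes did. KDELR1 was at 297, 278 and 291 CPM in vehicle and 279, 294 and 283 CPM under Tg (log2 -0.02, 95% interval -0.17 to 0.14, adjusted p = 0.893), an interval that overlaps neither that of KDELR2 (0.85 to 1.17) nor that of KDELR3 (0.69 to 1.11). Its share of the summed KDEL receptor level per kilobase was 73.6% ± 1.76 in vehicle and 57.9% ± 1.40 under Tg, and that of KDELR2 was 24.2% ± 1.70 and 38.7% ± 1.21 (SD, n = 3). KDELR1 was still the larger share in every Tg library. LMAN2 was at 430, 319 and 311 CPM in vehicle and 432, 354 and 440 CPM under Tg, with overlapping groups (log2 0.21, adjusted p = 0.0620). It was called higher without vehicle library 1 (log2 0.37, adjusted p = 1.78e-04). ERGIC1, a membrane protein that cycles between the ER and the intermediate compartment, fell: it was at 183, 176 and 185 CPM in vehicle and 135, 130 and 127 CPM under Tg (log2 -0.47, 95% interval -0.60 to -0.35, adjusted p = 2.20e-07). Every Tg library of ERGIC1 was below every vehicle library.

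**Figure D3:**
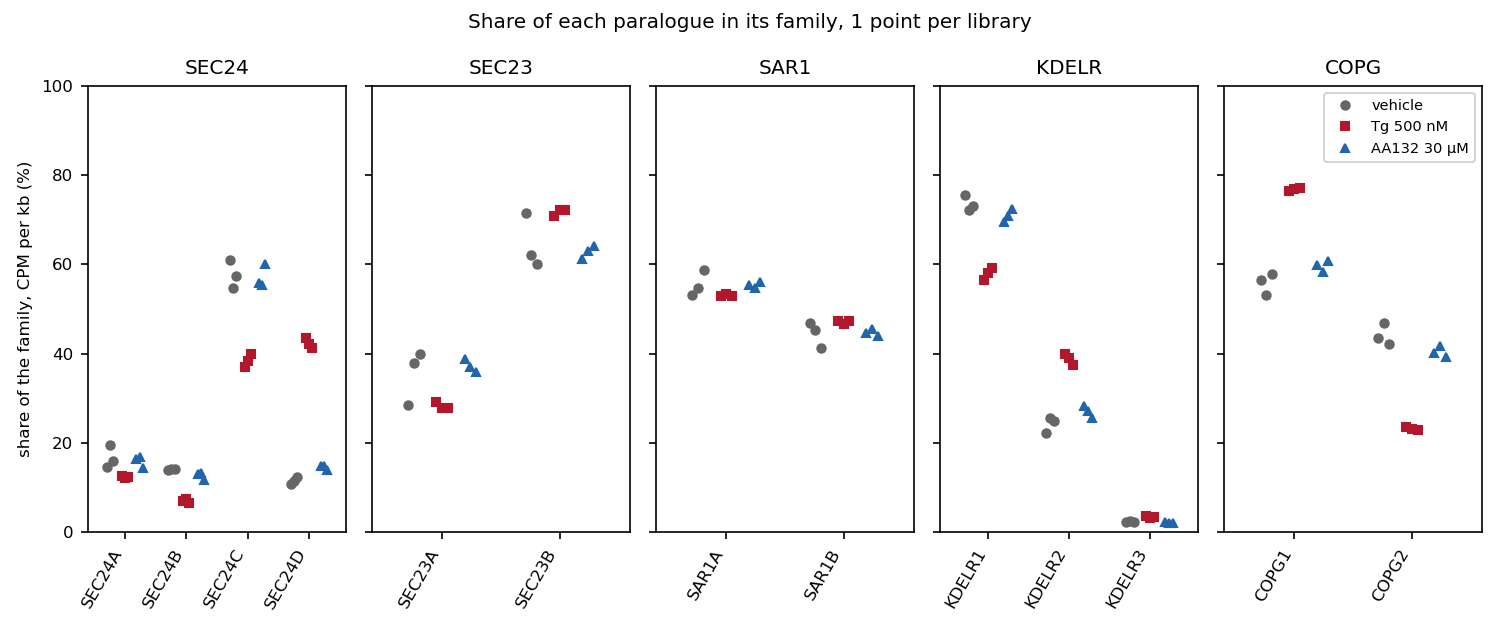
Share of each paralogue in the summed level of its family, in CPM per kilobase of transcript, with 1 point per library for vehicle, Tg and AA132 at 30 µM. Under Tg, SEC24D moved from 11.5% to 42.3% of the SEC24 level and COPG1 from 55.8% to 76.9% of the COPG level, while the points of SAR1A stayed between 52.8% and 58.7% in all 3 conditions.

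All 6 tethers and SNAREs rose under Tg. STX5, the Golgi SNARE that acts in both directions of this traffic (chromosome 11, 62806860 to 62832051, minus strand), was at 37.0, 29.5 and 33.4 CPM in vehicle and 85.5, 85.8 and 85.8 CPM under Tg (log2 1.36, adjusted p = 3.88e-15). USO1, the tether p115, was at 76.4, 109 and 102 CPM in vehicle and 234, 228 and 233 CPM under Tg (log2 1.27, adjusted p = 3.81e-14). For both genes the Tg libraries lay close together and more than 2-fold above every vehicle library. BET1, a SNARE of the same fusion complex, was at 20.3, 26.4 and 27.6 CPM in vehicle and 48.8, 42.9 and 43.8 CPM under Tg (log2 0.87, adjusted p = 1.02e-05). GOSR2 rose by 0.67, GOLGB1 by 0.60 and SEC22B by 0.59 on the log2 scale.

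Another 80 genes of ER to Golgi traffic were listed from general knowledge, also with earlier results of these data known, and 77 were tested. Of these, 27 rose, 13 fell and 37 did not pass the test under Tg, where 16.2% of all genes tested were higher and 15.0% lower. The median log2 fold change of the 77 was 0.11. TMEM39A, which binds SEC23 proteins, rose from 38.3 ± 1.95 to 90.2 ± 3.73 CPM (SD, n = 3, log2 1.24), TRAPPC6B of the TRAPP tether from 8.73 ± 2.84 to 17.6 ± 1.22 CPM (log2 1.01) and COG3 of the COG tether from 27.9 ± 3.61 to 56.1 ± 3.04 CPM (log2 1.00). The steepest called falls were in CIDEB (log2 -0.51), TRAPPC1 (log2 -0.45) and the GTPase RAB1B (log2 -0.41). Without vehicle library 1, 29 of the 77 were higher and 7 lower (5148 genes in all were called), of which 30 were among the 40 calls of the full fit. A fit of only the Tg and vehicle libraries called 24, of which 21 were higher and 3 lower, and 3073 genes in all.

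AA147 at 10 µM gave no called change in the 44 genes: 0 were called, where 0.0225% of all genes tested (4 genes) were. An unadjusted p under 0.05 was found for 7 of the 44 and for 1211 of the 17793 genes tested. DESeq2 also called 0 of the 44, and 26 genes in all. The median log2 fold change was 0.05 over the 44 genes, 0.13 over the cargo receptors and 0.00 over all genes. A positive value was found for 12 of 13 cargo receptors and for 9118 of the 17793 genes tested. TMED7 was at 62.0, 48.2 and 45.5 CPM under AA147, overlapping the vehicle libraries (log2 0.41, 95% interval 0.15 to 0.67, adjusted p = 0.445). Library 1 was thus the high value of AA147, while library 1 of vehicle was the low value of its group. AA147 library 1 had a median absolute deviation of 0.113 on the log2 scale over all genes, against 0.083 and 0.082 in its fellows. KDELR2 was at 210, 186 and 195 CPM, above the 157, 177 and 177 CPM of vehicle in every library, with a log2 fold change of 0.21 (95% interval 0.05 to 0.37, adjusted p = 0.583). SEC24D was at 42.4, 46.8 and 45.0 CPM, which overlaps vehicle.

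AA132 gave calls in these genes from 6 µM upward. At 0.1, 0.3 and 1 µM, 0 of the 44 were called, as were 0.00% of all genes tested at each dose. An unadjusted p under 0.05 was found for 0, 0 and 2 members, against 796, 981 and 1057 of the 17793 genes tested. At 3 µM 0 were called, where 0.118% of all genes were. At that dose 5 members and 1635 of all genes tested had an unadjusted p under 0.05. DESeq2 also called 0 members at each of these 4 doses, and 1, 2, 0 and 63 genes in all. TMED2 was called at 6 µM, where 1.07% of all genes were, and TMED2 and TMED7 at 10 µM, where 1.41% were. At 15 µM, 6 members rose (2.76% of all genes were called, 1.97% higher): SEC24D, SURF4, TMED2, TMED7, USO1 and STX5. Without vehicle library 1, only SURF4 and STX5 of these 6 were still called, and SEC24D (0.24, adjusted p = 0.0737), TMED2 (0.21, adjusted p = 0.0520), TMED7 (0.33, adjusted p = 0.0877) and USO1 (0.19, adjusted p = 0.125) were not. At 30 µM, 8 rose and 1 fell, where 7.05% of all genes were called, 3.86% higher and 3.19% lower.

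The members that rose at 30 µM were 5 of 13 cargo receptors, 2 of 6 tethers and SNAREs and 1 of 12 COPII coat genes. In the COPI coat, 0 of 13 rose and COPG2 fell. The median log2 fold change at 30 µM was 0.21 for cargo receptors, 0.20 for tethers and SNAREs, 0.03 for the COPII coat and 0.02 for the COPI coat, and -0.00 over all genes. TMED7 was at 59.4, 63.5 and 49.1 CPM, above the 27.2, 42.7 and 46.9 CPM of vehicle (log2 0.56, 95% interval 0.30 to 0.82, adjusted p = 0.00588). SEC24D was at 56.6, 57.6 and 52.8 CPM, above its highest vehicle library of 46.0 CPM (log2 0.43, adjusted p = 9.50e-04). STX5 was at 42.5, 43.3 and 44.2 CPM, against 29.5 to 37.0 CPM in vehicle (log2 0.38, adjusted p = 0.00318). In these genes no 30 µM library overlapped vehicle. SURF4, at 337, 337 and 317 CPM against 274, 239 and 259 CPM in vehicle, rose by a log2 of 0.36 (adjusted p = 0.00831). KDELR2, at 209, 214 and 220 CPM, rose by 0.33 (adjusted p = 0.00625). TMED5 was at 239, 239 and 211 CPM, of which the last lay within the 161, 215 and 185 CPM of vehicle (log2 0.30, adjusted p = 0.0131).

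USO1 was at 115, 117 and 113 CPM at 30 µM (log2 0.27, adjusted p = 0.0439) and TMED2 at 180, 187 and 169 CPM (log2 0.24, adjusted p = 0.0125), all above vehicle. COPG2, at 102, 103 and 101 CPM against 119, 120 and 110 CPM, fell by 0.19 on the log2 scale (adjusted p = 0.0428), a call lost in 8 of 12 alternative settings. Without vehicle library 1, the value of USO1 was 0.13 (adjusted p = 0.245), and TMED2 (0.18, adjusted p = 0.0557), TMED5 (0.20, adjusted p = 0.0662) and COPG2 (-0.18, adjusted p = 0.0661) were also no longer called. SEC24D, STX5, SURF4, KDELR2 and TMED7 were still called, at 0.32, 0.46, 0.41, 0.28 and 0.35, and TMED9 (0.41, adjusted p = 3.91e-05) and PREB (0.22, adjusted p = 0.0247) were called higher as well. In all, 7 of the 44 and 2017 of all genes were called without vehicle library 1, against 1255 of all genes in the full fit. Without AA132 30 µM library 1 or library 2, 5 of the 44 were called (700 and 737 over all genes). A fit of only the 30 µM and vehicle libraries called 0 of the 44 and 74 genes in all.

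TMED2 was the member called at the lowest dose. Its mean was 151 CPM in vehicle, 161, 160, 170 and 172 CPM at 0.1, 0.3, 1 and 3 µM, and 189, 199, 182 and 178 CPM at 6, 10, 15 and 30 µM. At 6 µM it was at 192, 191 and 184 CPM (log2 0.33, 95% interval 0.20 to 0.45, adjusted p = 0.00251), and at 10 µM at 193, 201 and 203 CPM (log2 0.40, 95% interval 0.28 to 0.53, adjusted p = 1.58e-04). Both doses lay above every vehicle library. TMED7 at 10 µM was at 62.7, 53.0 and 47.7 CPM (log2 0.48, adjusted p = 0.0476). Without vehicle library 1 the change of TMED7 at 10 µM was 0.28 and was not called (adjusted p = 0.146). The number of members called changed with single libraries at these doses. When vehicle library 1 was left out, the counts at 3, 6, 10 and 15 µM were 2, 5, 4 and 3. Over all genes the counts were then 85, 506, 651 and 636, against 21, 190, 250 and 491 in the full fit. The members that gained a call were TMED9 at each of these doses, COPE at 3, 6 and 10 µM, STX5 at 6 and 10 µM, and SEC24A (lower) at 6 µM. At 10 µM the count of members was also 4 without vehicle library 2 (317 over all genes) and 1 without AA132 10 µM library 2 (193 over all genes). Without AA132 10 µM library 1 it was 3 (340 over all genes), namely TMED2, SURF4 (0.34) and STX5 (0.35), and TMED7 was not called (0.36, adjusted p = 0.211). At 15 µM the count was 1 without AA132 15 µM library 3 (267 over all genes). A fit of only the 2 groups called 0 members at 6, 10 and 15 µM, and 25, 8 and 46 genes in all.

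**Figure D4:**
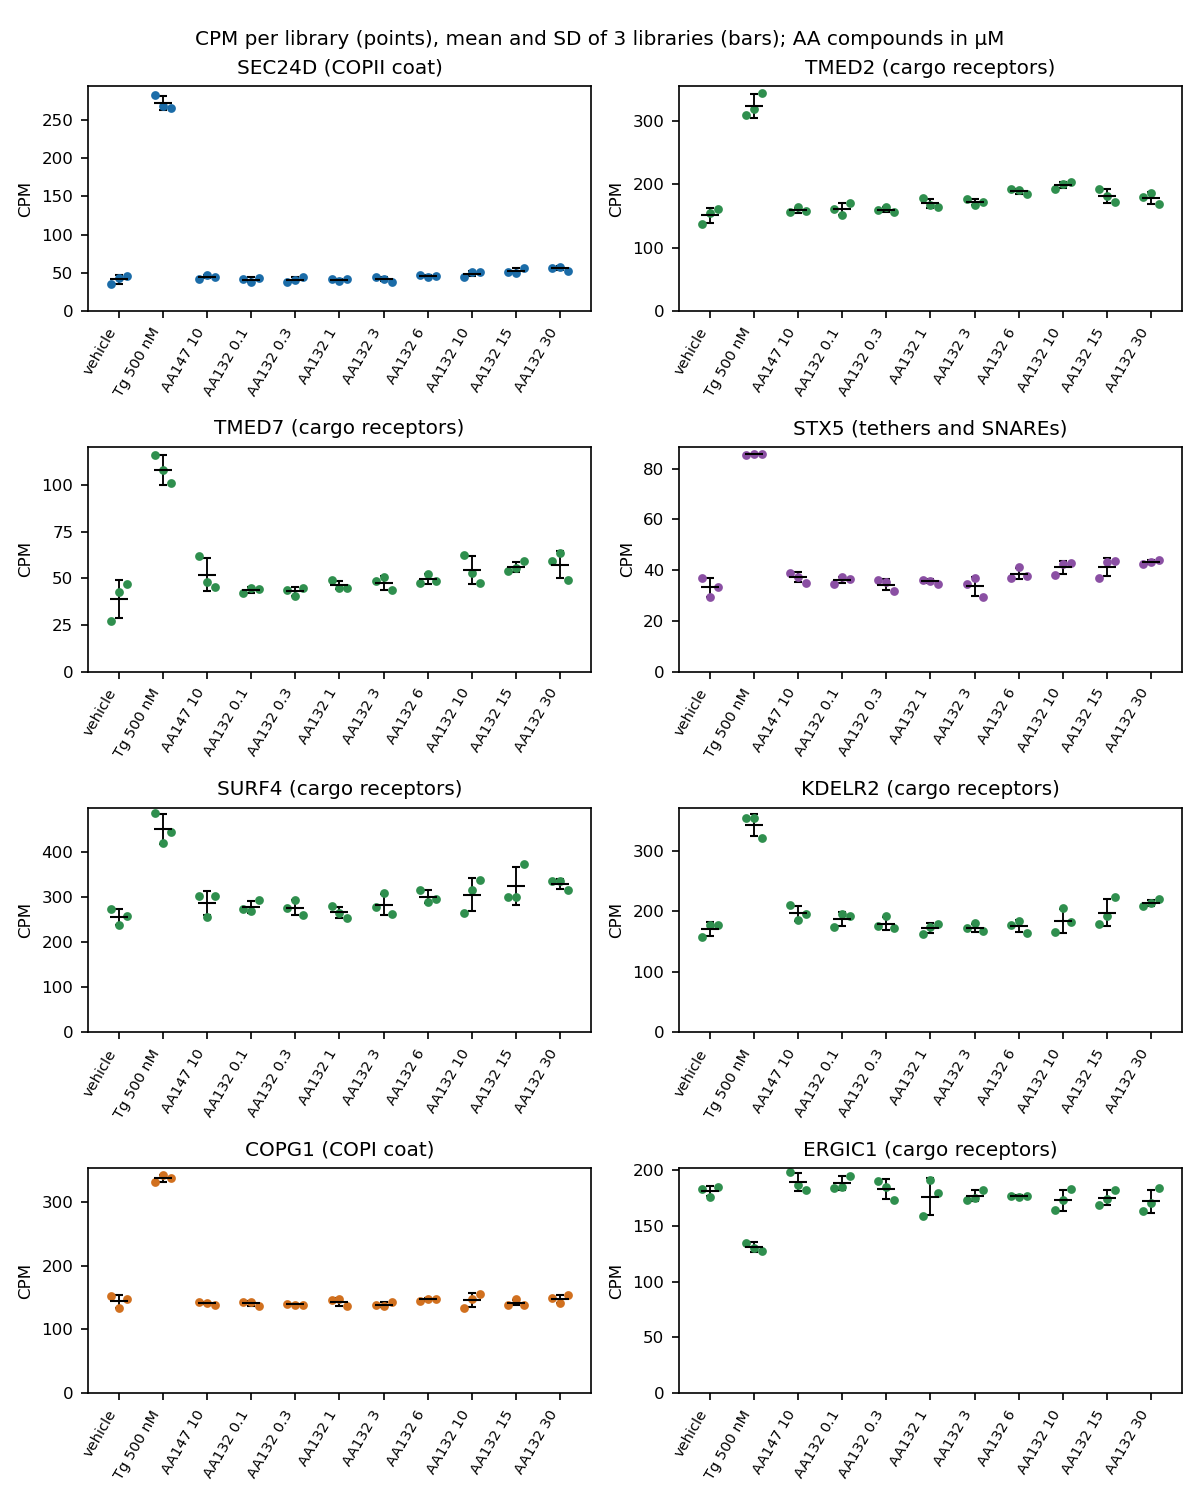
CPM of 8 members in each of the 33 libraries. Points are libraries, the horizontal mark is the mean and the bar the SD of 3 libraries, with AA147 and AA132 doses in µM. SEC24D reached 265 to 282 CPM under Tg and 52.8 to 57.6 CPM at 30 µM of AA132, and ERGIC1 was lowest under Tg.

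The slope on log10 dose over the 24 AA132 libraries does not use vehicle. By that test 11 of the 44 genes rose with dose and 1 fell, where 18.7% of all genes tested were called, 9.83% rising and 8.89% falling. Of the 13 cargo receptors, 6 rose: TMED7 by 0.18 on the log2 scale per 10-fold dose (95% interval 0.12 to 0.23, adjusted p = 1.04e-05), TMED5 by 0.14, SURF4 by 0.11, TMED2 and TMED9 by 0.10 each and MCFD2 by 0.09. In the COPII coat SEC24D rose by 0.18 (95% interval 0.13 to 0.24, adjusted p = 1.06e-05) and SEC24B fell by 0.09 (adjusted p = 0.00371). These paralogues moved in opposite directions with dose, and their intervals did not overlap. ARFGAP3 (0.10) and COPB1 (0.07) rose in the COPI coat, and STX5 (0.12) and USO1 (0.10) among tethers and SNAREs. The median slope was 0.08 for cargo receptors and for tethers and SNAREs, -0.00 for the COPII coat, -0.02 for the COPI coat and 0.00 over all genes. KDELR2, called at 30 µM, had a slope of 0.06 that did not pass (adjusted p = 0.134).

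**Figure D5:**
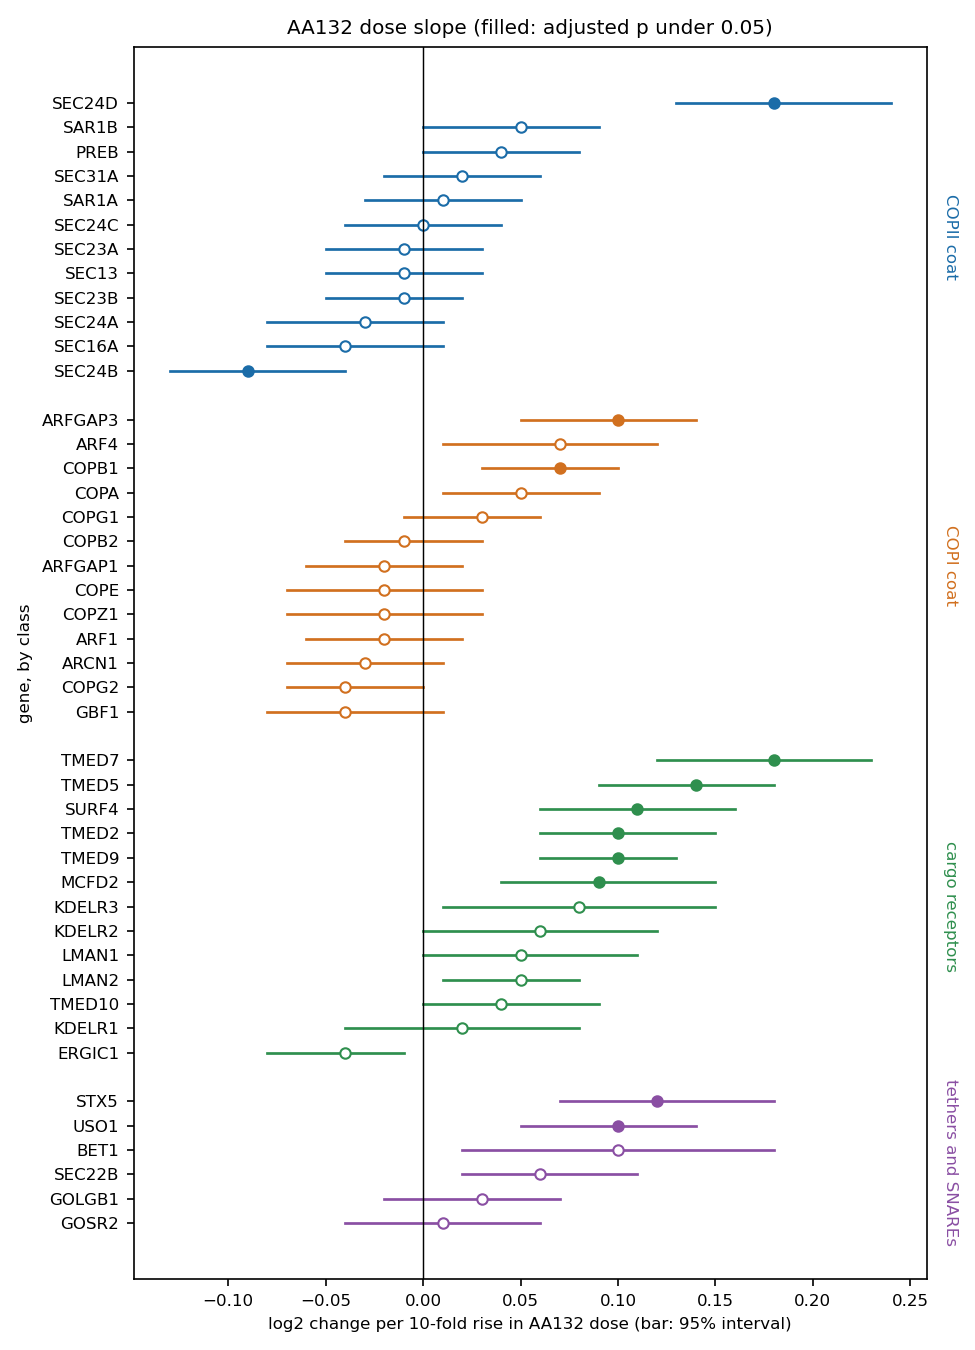
Slope of log2 expression per 10-fold rise in AA132 dose for the 44 genes, with 95% intervals, by class. Filled points have an adjusted p under 0.05. Of the 12 filled points, 6 are cargo receptors, all to the right of 0, and SEC24B at -0.09 is the one to the left.

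Of the other 77 pathway genes, 5 rose and 4 fell at 30 µM of AA132, with a median of -0.00, where 3.86% of all genes tested were higher and 3.19% lower. The largest called rises were those of TMEM39A (log2 0.50), CNIH1, a cargo receptor of the cornichon family (log2 0.34), and YIPF4 (log2 0.34). The largest called falls were those of the SNARE USE1 (log2 -0.41) and the tether-associated proteins NBAS (log2 -0.26) and COG2 (log2 -0.24). The count of 9 was 0 in a fit of only the 2 groups, 14 in DESeq2, 3 without AA132 30 µM library 1 and 4 without library 2. Over all genes these fits called 74, 1669, 700 and 737. Without vehicle library 1, USE1 (-0.15, adjusted p = 0.344) and YIPF4 (0.25, adjusted p = 0.0712) were not called.

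AA132 and AA147 could be compared at the matched dose of 10 µM and time of 6 h, as 1 pair of compounds. TMED2 was the only member that differed at an adjusted p under 0.05, where 0.0674% of all genes tested were called. It was at 193, 201 and 203 CPM under AA132 and 156, 164 and 158 CPM under AA147, with no overlap (log2 0.32, 95% interval 0.19 to 0.45, adjusted p = 0.0250). The other 43 genes had differences between -0.20 and 0.20 on the log2 scale. For SEC24D the 10 µM libraries of AA132 were at 44.5, 50.7 and 50.7 CPM and those of AA147 at 42.4, 46.8 and 45.0 CPM, which overlap. KDELR1 was lower under AA132 by a log2 of -0.20 (95% interval -0.35 to -0.05, adjusted p = 0.436). The TMED2 call was lost when AA132 library 2 or 3, or each AA147 library in turn, was left out.

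Against Tg, AA132 at 30 µM was lower in 38 of the 44 genes and higher in 1, where 29.8% of all genes tested were called, 15.5% lower and 14.3% higher. These agents differ in dose and the comparison is of the libraries as treated. The median difference was -0.66 on the log2 scale over the 44 genes and -0.01 over all genes. SEC24D differed most, by -2.29 (95% interval -2.46 to -2.12, adjusted p = 1.21e-19). USO1 differed by -1.01, STX5 by -0.98, TMED7 by -0.92 and TMED2 by -0.86, and SURF4 by -0.45. ERGIC1 was the gene that was higher under AA132 (163, 170 and 184 CPM against 135, 130 and 127 CPM under Tg, log2 0.40, adjusted p = 4.92e-06). SEC16A, SEC24B, COPG2, KDELR1 and LMAN2 did not pass. COPG2, at 102, 103 and 101 CPM under AA132 and 104, 104 and 102 CPM under Tg, differed by -0.02 (95% interval -0.14 to 0.10).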

How the data were processed

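The deposited table gives expected counts per gene made by the authors, unscaled, for 33 numbered columns, 3 for each of 11 samples. The build was GRCh38.p7 per the submitters' processing notes. The aligner, counter, annotation and use of strand are not given in the sources used here. The value 0.009, which fills 43.5% of cells, was set to 0, counts were rounded, and 98 rows sharing 45 names were summed. The 3 columns of each sample differed beyond counting error (chi-square per degree of freedom 4.67 to 64.5) and were treated as replicate libraries.

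All 33 libraries entered 1 fit in edgeR 4.0.16 (quasi-likelihood F-test, R 4.3.3, TMM scaling, the edgeR filter on low counts, no block), which tested 17793 genes. The slope was fitted on 24 AA132 libraries and 17554 genes. Calls used a Benjamini-Hochberg adjusted p under 0.05 over all genes tested. CPM is TMM-scaled, with the SD over 3 libraries. Levels per kilobase used the canonical transcript of GENCODE v44. Alternatives were DESeq2 1.42.0, its size factors in edgeR, no filter, only the groups compared, a replicate block, a minimum log2 fold change of 0.5, and leaving out each library. The fit was also run on simulated counts, drawn from the kind of model it assumes and with no deviant library. That run therefore does not bear on the effect of vehicle library 1.

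The members and lists were chosen with earlier results of these data known. Per-library values are given for the 4 members of a class (3 for tethers and SNAREs) with the largest called change under Tg, those called at 10 or 30 µM of AA132, and the 4 with the smallest change under Tg. LMAN2, ERGIC1 and values of members in other comparisons were added after they were seen. Of the other pathway genes, up to 3 called in each direction were named.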

Additional observations from a re-analysis of the deposited data

How the results depend on the processing

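No called member changed direction under any alternative. The count of the 44 genes called under Tg (40) was 30 with a minimum log2 fold change of 0.5, 33 with only the groups compared and 38 to 41 when 1 library was left out. Over all genes (5551) these were 2440, 3073 and 4571 to 5769. The count for the slope (12) was 12 to 16 with 1 library left out and 13 without the 30 µM dose, and over all genes (3286) it was 2784 to 3656 and 2046. The count for AA132 at 30 µM against Tg (39) was 27 with the minimum fold change and 35 to 38 with 1 library left out. Over all genes (5305) it was 2237 and 4363 to 4605. Counts at single AA132 doses were less stable. With the minimum fold change, 0 members were called at 6 and 10 µM and 1 each at 15 and 30 µM (97, 123, 201 and 368 over all genes). With only the groups compared 0 were called at 6, 10, 15 and 30 µM (25, 8, 46 and 74 over all genes). Without the filter on low counts, 2 were called at 6 µM (360 over all genes) and 1 under AA147 (82 over all genes). Leaving out 1 library gave 0 to 2 at 3 µM, 1 to 5 at 6 µM, 1 to 4 at 10 µM, 1 to 7 at 15 µM and 5 to 9 at 30 µM. Over all genes these ranges were 0 to 85, 95 to 506, 156 to 651, 267 to 920 and 700 to 2017. For AA132 against AA147 at 10 µM (1 member), the minimum fold change and the fit of the groups alone gave 0, and leaving out 1 library gave 0 to 1. Over all genes (12) these were 6, 0 and 0 to 77. The cause of these changes was not tested. Fewer libraries enter the fits that leave one out or use only the groups compared.

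Same-numbered libraries did not deviate together (correlation of their deviations -0.15 to 0.18, with 0 of 12 comparisons where every pair passed 0.1), so the numbers were not taken to pair the libraries. With a replicate block, 1 member (TMED2) was called at 10 µM of AA132 in place of 2 (252 over all genes), and the Tg count stayed at 40 (5572 over all genes). Of the other 77 pathway genes, 14 were called under Tg with the minimum fold change, against 40 (2440 over all genes, against 5551).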

Other observations

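TMED2 had its highest AA132 mean at 10 µM (199 ± 5.27 CPM, SD, n = 3) and was at 178 ± 9.15 CPM at 30 µM, with no overlap between the libraries of these doses. SEC24D, TMED7, STX5, SURF4, KDELR2 and TMED5 had their highest AA132 mean at 30 µM, SEC24D at 55.7 ± 2.52 CPM. The difference between 10 and 30 µM was not tested for any gene.

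ERGIC2, a relative of ERGIC1 chosen after its values were seen, fell by 0.23 on the log2 scale under Tg (adjusted p = 0.0208, edgeR). ERGIC3 had the same value (log2 -0.23, adjusted p = 0.0167), but was at 357, 259 and 266 CPM in vehicle and at most 255 CPM under Tg, and without vehicle library 1 its value was -0.07 and was not called (adjusted p = 0.381). MIA3, which helps load collagen at ER exit sites and is not among the 44 genes, rose by 0.95 on the log2 scale under Tg (adjusted p = 3.39e-12).

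TMED7 shares 20.7% of its exon bases with the read-through gene TMED7-TICAM2, which had 0 counts in every vehicle and Tg library, while TMED7 had at least 981. ARFGAP3 overlaps PACSIN2 on the same strand over 5.68% of its exon bases. PACSIN2 had at most 3010 counts in vehicle and 3759 under Tg, where ARFGAP3 had at least 1758 and 4649.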
